A study of Mus musculus with 15 samples.

Results

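Glycerol kinase, encoded in the mouse by the X-linked gene Gk, was followed through liver development with the array probe that carries its RefSeq accession. Among 59709 probes, 112 genes could be given a symbol, and Gk is 1 of them. It was chosen from its own signal, which earlier results of the same data showed to differ between stages, so its levels and changes are given as a description with no test. Its probe was printed as 20 spots on each array, and the mean over spots not marked as outliers by the scanner software was taken as the level.

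Glycerol kinase transfers a phosphate group from ATP to glycerol and yields glycerol-3-phosphate. In liver this product is a backbone of triglycerides and phospholipids and, once oxidised to dihydroxyacetone phosphate, a substrate of gluconeogenesis. The liver is a main site where glycerol released from stored fat by lipolysis is taken up and used, and loss of the enzyme in humans gives X-linked hyperglycerolaemia.

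The material was liver RNA of the inbred mouse strain C57BL/6. Fetal liver was taken on 3 days of gestation (E12.5, then E14.5, then E17.5), and postnatal liver from neonates and from adults aged 8 weeks, with 3 arrays for every stage and 15 in all. The labels name no genotype, treatment or sex. Whether a stage's arrays stand for different animals or for pools is not given in the labels, so an error given here measures only the spread between these arrays, which may be technical. In whole liver, a change in the share of hepatocytes and a change in RNA per hepatocyte cannot be told apart.

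The RefSeq promoter window of Gk is shown because it places the gene and gives the sequence in front of its start. It covers 250 bases up to the start, chrX:85776820-85777069 on the minus strand of GRCm38.p6, and is written 5′ to 3′ with every match to the motifs CACGTG (E-box) and GGGCGG (GC box, either strand) in capitals.

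Gk promoter: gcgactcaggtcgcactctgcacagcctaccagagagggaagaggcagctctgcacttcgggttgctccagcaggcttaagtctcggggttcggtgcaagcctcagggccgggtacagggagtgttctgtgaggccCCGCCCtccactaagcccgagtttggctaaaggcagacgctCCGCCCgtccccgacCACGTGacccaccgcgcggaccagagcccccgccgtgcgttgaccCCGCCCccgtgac

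The E-box lay 58 bases before the start, and the GC boxes, all on the reverse strand, lay 114, 73 and 13 bases before it. No 2 of these matches overlapped. Of 32851 RefSeq windows of the same length, 6.02% held CACGTG and 32.7% held GGGCGG on either strand. The motifs TGACGTCA, TATAAA and CCAAT, searched on both strands, had no match in the Gk window and were present in 1.55%, 12.4% and 33.8% of all windows. Guanine and cytosine made up 67.2% of the Gk window, against a median of 52.4% over all windows. The motifs, common promoter elements, were picked after the sequence was seen, and a match is a run of letters, not a measured site. RefSeq lists 8 Gk transcripts, 5 of them curated. Which of them the probe reads is not known, and the sequence of the probe is not used here. No probe carried the accession of Gk2 or Gykl1, the paralogs of Gk in the mouse.

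On 14 arrays the share of noncontrol spots well above background lay in the range 50.9% to 62.9%. On E17.5 replicate 1 the share was 80.9%, with 55.8% of negative-control spots also well above background, against 4.0% to 9.58% on the others. The arrays came from 2 scans by their scan date, and the arrays of 1 scan are called a slide here. That is an assumption, because the labels name no slide and the barcodes in the file headers differ between arrays of a scan. Of the 3 E17.5 arrays, replicates 1 and 2 lay on slide 1 with all earlier ones (8 arrays), and replicate 3 lay on slide 2 with all postnatal ones (7 arrays). Slide and stage therefore cannot be told apart except through E17.5. None of 14 hepatocyte markers and none of 9 sex-linked marker genes had a named probe, so the tissue label was not checked against hepatocyte genes. On slide 1, spots in columns from 120 on of the array were dimmer than those in columns below 120, which touches Gk directly and is described after its levels.

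Gk signal was lowest at E12.5 and highest in adult liver, and the stage means followed the order of development. At E12.5 the processed signal, a linear intensity in arbitrary units, was 55.4, 125 and 118 in replicates 1, 2 and 3. E14.5 livers gave 129, 162 and 136, and E17.5 livers 237, 229 and 202. With all spots used, all 3 E17.5 arrays lay above all 6 earlier ones. In columns below 120 alone, E17.5 replicate 3 (197) lay below E14.5 replicate 2 (224) in processed signal. Neonatal livers had 834, 538 and 642, and adult livers had 1004, 780 and 875. All 6 postnatal arrays lay above all 9 fetal ones, whereas adult replicate 2 lay below neonatal replicate 1. No Gk spot was saturated among 300, and 9 were marked as outliers.

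Arrays differ in overall brightness, so the signal of each array was divided by the 75th percentile of its noncontrol probes. On this scale Gk averaged 0.400 ± 0.038 at E12.5, 0.508 ± 0.029 at E14.5, 0.991 ± 0.166 at E17.5, 2.99 ± 0.82 in neonatal liver and 5.21 ± 1.60 in adult liver (SD, n = 3 each). Gk was thus dimmer than that percentile on all 6 arrays of the first 2 stages and brighter on all 6 postnatal ones. In log2 units the scaled level was -1.33 ± 0.14, -0.98 ± 0.08, -0.03 ± 0.25, 1.55 ± 0.38 and 2.33 ± 0.50 in the same order of stages. The spread between arrays was widest in adult liver, where replicates 1, 2 and 3 stood at 2.63, 1.75 and 2.60. Neonatal replicates 1, 2 and 3 stood at 1.97, 1.26 and 1.41.

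**Figure D1:**
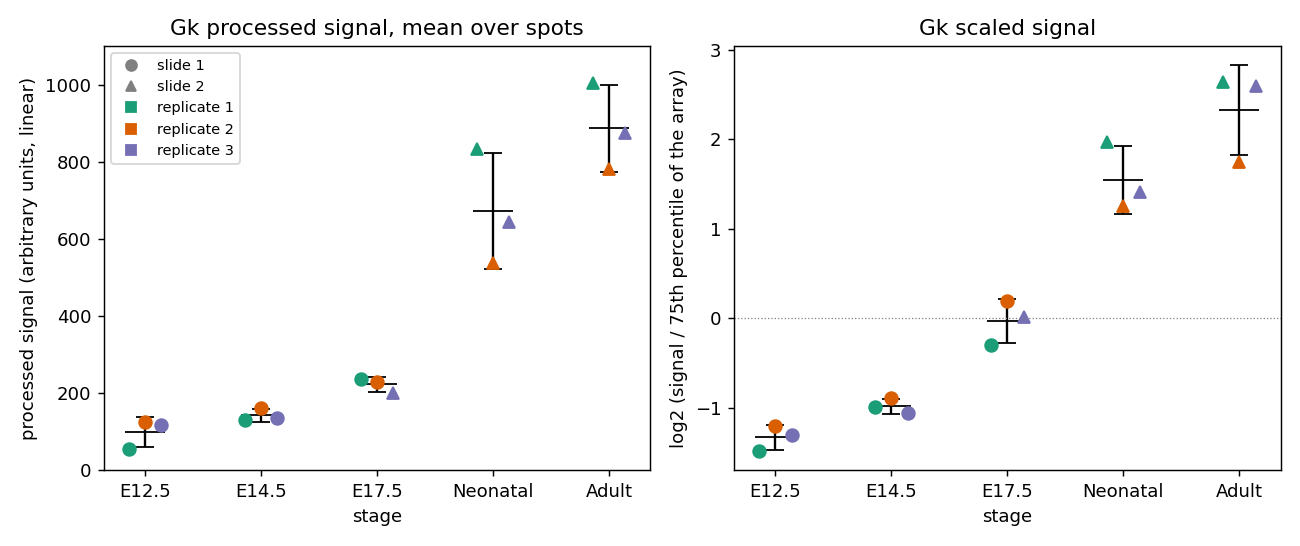
Gk on each of the 15 arrays by stage. The left panel gives the mean processed signal (linear, arbitrary units) and the right panel the log2 of that signal over the 75th percentile of the array, with the mean and SD of 3 arrays as black bars, replicates by colour and slides by shape. All postnatal arrays, from 538 upwards on the left, lie above all fetal ones, which reach 237.

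With all spots used, the largest difference between neighbouring stages was the one across birth, whereas in the spots of columns from 120 on it was that of E17.5 from E14.5 (1.76 against 1.36 in log2 units). Gk was 2.98-fold higher in neonatal than in E17.5 liver, a log2 difference of 1.57 (SE 0.28, 95% interval 0.98 to 2.17). The neonatal arrays did not overlap those of E17.5. Across all 37357 features tested, 4.65% had a log2 difference at least as high in this comparison. Adult liver was 1.72-fold above neonatal liver (log2 difference 0.78, SE 0.28, 95% interval 0.18 to 1.38), with overlapping arrays, and 20.9% of all features had a difference at least as high. The intervals are given as a description.

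Before birth, Gk was 1.94-fold higher at E17.5 than at E14.5 (log2 difference 0.95, SE 0.28). The scaled arrays of these stages did not overlap, and 13.5% of all features had a difference at least as high. E14.5 stood 1.27-fold above E12.5 (log2 difference 0.35, SE 0.28, 95% interval -0.25 to 0.94), and 24.5% of all features reached that difference. The SE is the same in all 6 comparisons, because the fit shares 1 estimate of spread over the 5 stages, moderated over all features. The E12.5 and E14.5 arrays themselves spread less (SD 0.14 and 0.08 in log2 units), so this interval is not their scatter. The scaled values of E14.5 and E12.5 did not overlap when all spots were used. Over longer spans, Gk was 7.33-fold higher in neonatal than in E12.5 liver (log2 difference 2.87, SE 0.28), a difference that 4.71% of features matched or passed. With normexp background correction that log2 difference was 2.14, and from the spots of columns from 120 on it was 3.56. Adult liver exceeded E12.5 liver 12.6-fold (log2 difference 3.65, SE 0.28), which 4.31% of features matched or passed. Here normexp gave a log2 difference of 2.79 and the spots of columns from 120 on gave 4.33. The comparisons share stages, so they are not separate evidence of 1 course. The choice of Gk used these same contrasts, so nothing is read from the shares.

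The 20 Gk spots of an array carry the same probe, and they did not give the same signal on slide 1. Of these spots, 12 lay in columns up to 116 and 8 in columns from 126 on. On E14.5 replicate 1 the median signal was 189 over the first 12 spots and 35.0 over the other 8, a ratio of 5.38. On E12.5 replicate 2 the medians were 187 and 19.9, a ratio of 9.40. The ratio lay between 1.40 and 9.40 over the 8 slide-1 arrays and between 0.921 and 1.04 over the 7 slide-2 arrays. It was smallest on slide 1 in E17.5 replicates 1 and 2, at 1.40 and 1.55. On E17.5 replicate 3, the array of the same stage on slide 2, it was 0.957.

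The gap was already present in the scanner's median signal before background subtraction and detrending. On E14.5 replicate 1 that signal had a median of 267 over the 12 spots and 113 over the 8. Multiplicative detrending by the scanner software was recorded for 6 of the 7 slide-2 arrays, all but adult replicate 2, and for no slide-1 array. The coefficient of variation over the spots used was 9.0% to 71.9% on slide 1 and 4.31% to 8.22% on slide 2. On E12.5 replicate 3, 5 of the 8 spots were marked as outliers, all of them dim, so its level of 118 rests mainly on the 12 others. With the outliers kept that level was 95.04.

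**Figure D2:**
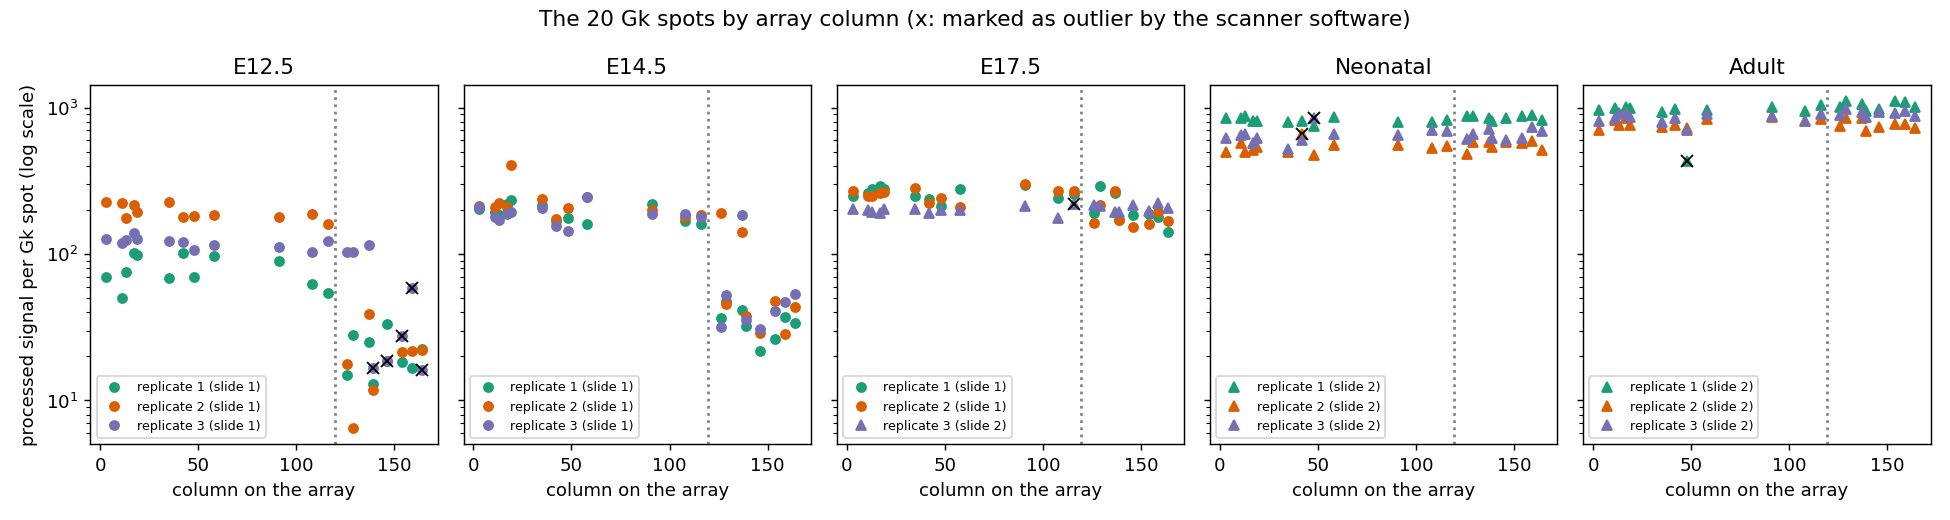
Processed signal (log scale) of each Gk spot by its column on the array, 1 panel a stage, with replicates by colour, slides by shape, outlier spots crossed and a dotted line before column 120. Spots right of the line drop on the slide-1 arrays, most at E12.5 and E14.5, and stay level on the slide-2 arrays.

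With the spots split at that line, a division chosen after the data were seen, the order of the stage means held in both sets. Each set was scaled to the 75th percentile of the noncontrol probes in its own columns. In columns below 120 the scaled log2 level was -1.17 ± 0.36 at E12.5, -0.75 ± 0.08 at E14.5, -0.09 ± 0.23 at E17.5, 1.47 ± 0.39 in neonatal and 2.26 ± 0.48 in adult liver (SD, n = 3 each). In columns from 120 on it was -1.86 ± 1.21, -1.42 ± 0.28, 0.34 ± 0.37, 1.70 ± 0.33 and 2.47 ± 0.50 in the same order of stages. E14.5 and E12.5 overlapped in both sets. In columns from 120 on they did so only through E12.5 replicate 3 (-0.72), which rests on 3 spots there after 5 dim outliers were left out. In columns below 120, for example, E14.5 replicate 3 was at -0.83 and E12.5 replicate 2 at -0.77. Every scaled E17.5 array lay above every earlier one in both sets.

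The size of the late fetal difference depended on the spots. E17.5 exceeded E14.5 by 0.66 in columns below 120 and by 1.76 in columns from 120 on, against 0.95 with all spots (log2 differences). With the mean of log2 spot signals in place of the log2 of the mean, it was 1.31. The difference of neonatal from E17.5 liver was 1.56 and 1.36 in the 2 sets, and that of adult from neonatal liver was 0.79 and 0.77. Adult liver exceeded E12.5 by 3.43 and 4.33. Within slide 2 alone, neonatal liver exceeded E17.5 replicate 3, the single E17.5 array there, by 1.53. Within slide 1 alone, E17.5 exceeded E14.5 by 0.93.

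**Figure D3:**
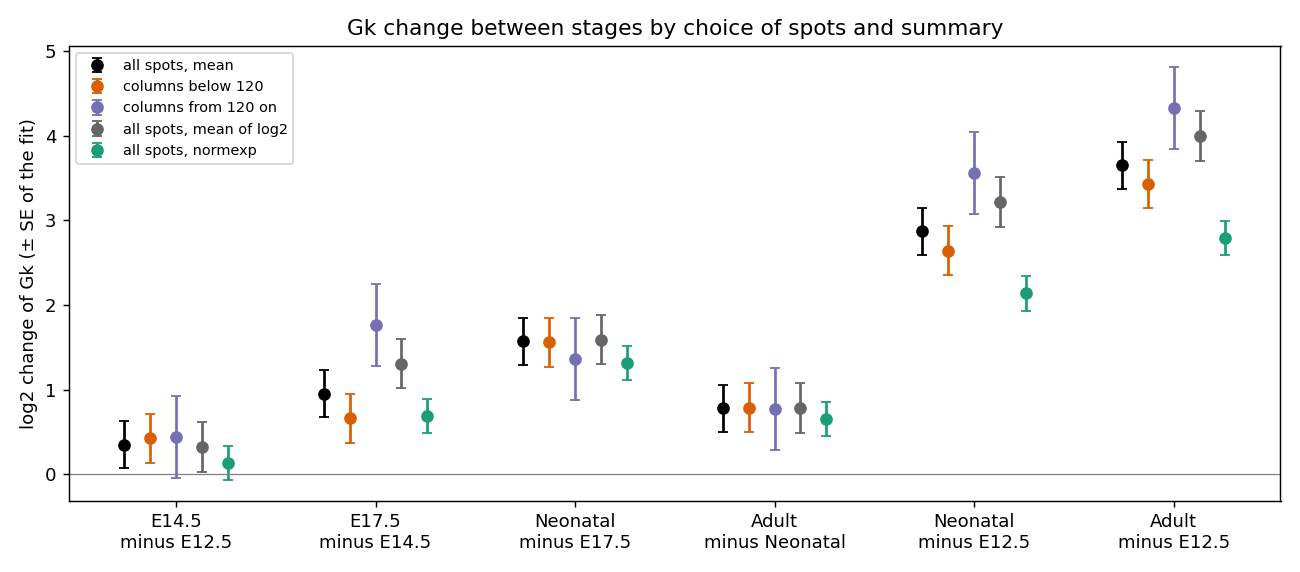
Log2 change of Gk in 6 stage comparisons (later minus earlier), with the SE of the fit over 15 arrays as bars, for all spots, for the 2 sets of columns, for the mean of log2 spot signals and for another background correction. The values for E17.5 minus E14.5 run from 0.66 to 1.76, whereas those for adult minus neonatal run from 0.66 to 0.79.

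The column gap was larger for Gk than for 13 of the other 14 probes printed 20 times. Over the slide-1 arrays the median ratio was 3.90 for Gk and 28.0 for Ldhal6b, a testis-enriched relative of lactate dehydrogenase. For G6pd2, a relative of glucose-6-phosphate dehydrogenase, it was 1.41, and for the other 12 probes it lay between 1.04 and 1.12. Gk and Ldhal6b were also the dimmest of the 15 probes on slide 1. On slide 2 the median ratio was 0.945 for Gk, 2.37 for Ldhal6b and 0.934 to 1.03 for the other 13. Over all noncontrol spots the ratio was 1.53 to 4.30 on slide 1 and 0.984 to 1.23 on slide 2. The gap was thus not a property of Gk alone.

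**Figure D4:**
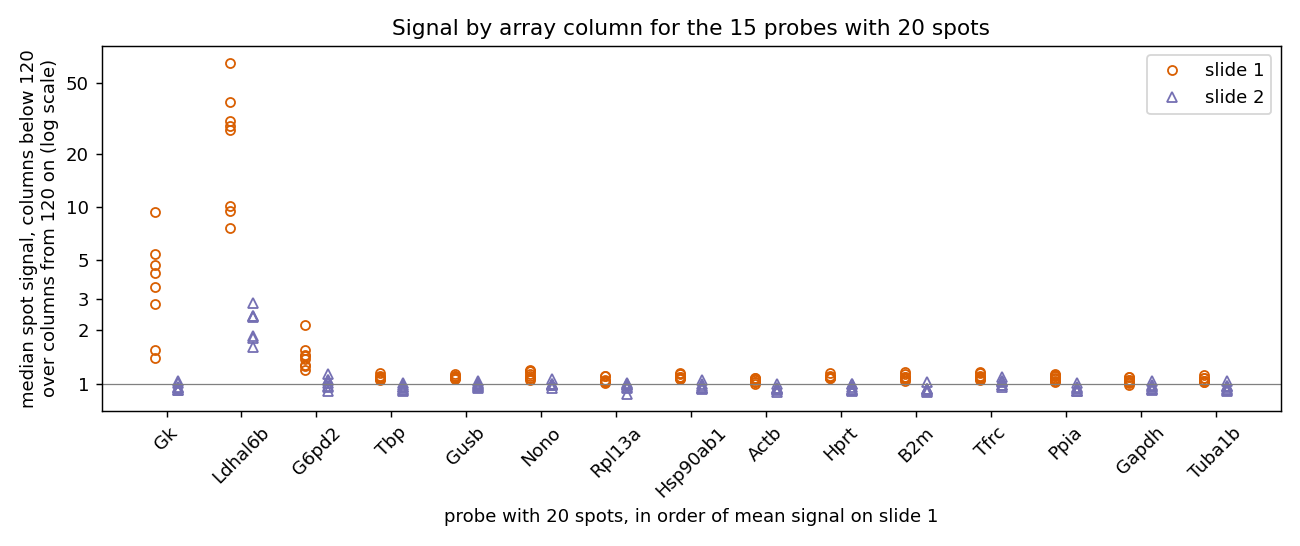
Ratio (log scale) of the median spot signal in columns below 120 to that in columns from 120 on for the 15 probes with 20 spots, 1 symbol an array, probes ordered from dim to bright. Gk, Ldhal6b and G6pd2 stand above the other 12 probes on slide 1, and on slide 2 only Ldhal6b does.

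Few genes of the pathways around Gk could be read on this array. Gk itself was the only 1 of 19 genes listed for glycerol handling and of 7 listed for its family of carbohydrate kinases with a named probe. Of 156 genes listed in all, Gk left out, 17 were tested. None of these was called at E14.5 against E12.5, where 4.93% of all features were called (limma, adjusted p below 0.05), and 1 of the 17 had an unadjusted p below 0.05. None was called at E17.5 against E14.5, where 7.11% of all features were, and again 1 had an unadjusted p below 0.05. Of the 17, 3 were called lower in neonatal than in E17.5 liver (18.1% of all features called). In adult against neonatal liver 5 were called higher and 3 lower (25.9% of all features). In neonatal against E12.5 liver 2 were called higher and 6 lower (41.9%), and in adult against E12.5 liver 5 each way (50.8%). Of 12 genes listed for testis and germ line, H2al2b and Ldhal6b had a named probe. H2al2b was called lower in neonatal than in E17.5 liver (log2 difference -1.63, SE 0.31, limma adjusted p = 0.00309). It was also called lower in neonatal (-1.52) and in adult liver (-1.60) than at E12.5 (limma adjusted p = 0.00175 and 0.000693). All 3 calls of H2al2b were lost with the slide as a block.

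Tmlhe, which encodes the first enzyme of carnitine synthesis and lies like Gk on the X chromosome, was the only 1 of 17 genes listed for fatty acid oxidation, carnitine and ketone bodies with a named probe. Its scaled log2 level was 0.41 ± 0.29 at E12.5, 0.36 ± 0.19 at E14.5, 0.79 ± 0.50 at E17.5, 1.63 ± 0.38 in neonatal and 2.77 ± 0.21 in adult liver (SD, n = 3 each). It rose in adult against neonatal liver by 1.14 (SE 0.29, limma adjusted p = 0.0111) and against E12.5 liver by 2.35 (limma adjusted p = 1.46e-05). Across birth its difference was 0.84 and did not pass (limma adjusted p = 0.0611), although 5 of 22 alternatives called it, among them the fit without E17.5 replicate 3. For Gk that difference was 1.57. The single Tmlhe spot lay in column 120, the first of the columns counted as dim on slide 1. That border was chosen after the data were seen, and column 120 was not examined by itself. With the slide as a block or from columns from 120 on alone the call of neonatal against E12.5 liver was lost, and without neonatal replicate 2 or with no scaling that of adult against neonatal liver.

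Hmgcs1, the cytosolic enzyme that makes HMG-CoA for cholesterol synthesis, took a different course from Gk. Its scaled log2 level was 7.01 ± 0.36 at E12.5, 7.34 ± 0.02 at E14.5, 7.88 ± 0.38 at E17.5, 5.76 ± 0.33 in neonatal and 8.86 ± 0.36 in adult liver (SD, n = 3 each). It fell by 2.12 in neonatal against E17.5 liver (SE 0.28, limma adjusted p = 0.000305), the comparison in which Gk was 1.57 higher. It rose by 3.103 in adult against neonatal liver (SE 0.28, limma adjusted p = 1.91e-06). Both calls held under all 22 and 21 alternatives run for them. It was the only 1 of 15 genes of sterol and fatty acid synthesis with a named probe.

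In glycolysis and gluconeogenesis, 2 of 26 listed genes had a named probe. Gapdh, the glycolytic enzyme that also serves as a reference gene, passed the test in none of the 6 comparisons, with log2 differences of -0.29 to 0.47. Of the alternatives, only the fit without E12.5 replicate 1 called it, in adult against E12.5 liver. Ldhal6b was called lower in neonatal than in E17.5 liver (log2 difference -2.14, SE 0.53, limma adjusted p = 0.0148), but its spots differed by column more than those of Gk. Its scaled log2 level was 0.94 and 1.38 on the E17.5 arrays of slide 1, replicates 1 and 2, but -1.44 on the E17.5 array of slide 2, and averaged -1.85 ± 0.27 in neonatal liver (SD, n = 3). That call was lost under 9 of 22 alternatives, among them the slide as a block, the fit within slide 2, and leaving out E17.5 replicate 1, E17.5 replicate 2, neonatal replicate 2 or neonatal replicate 3.

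Common reference genes were called in both directions. Of 11 tested, 1 was called higher and 4 lower in adult against E12.5 liver, where 50.8% of all features were called, so the count is near that share. The median log2 difference of the 11 was -0.58 there, against -0.04 over all features. B2m, the light chain of MHC class I, was the 1 called higher, by 2.68 (SE 0.32, limma adjusted p = 9.73e-06), and Rpl13a, Tbp, Tfrc and Tuba1b were the 4 called lower. These calls held under all 20 alternatives run for each. Actb, Gapdh, Gusb, Hprt, Hsp90ab1 and Ppia were called in no comparison in the main fit. Under other settings all but Ppia were called somewhere. In adult against E12.5 liver Hprt was called under 12 of 20 alternatives, Gusb under 4, Hsp90ab1 under 2, and Actb and Gapdh under 1 each. In adult against neonatal liver Gusb was called under 7 of 21 and Hprt under 4. Across birth Gusb and Hsp90ab1 were called under 1 of 22 each. Tfrc, the transferrin receptor, is abundant in red cell precursors and was the only 1 of 14 erythroid markers with a named probe. It fell by 3.39 in adult against E12.5 liver (SE 0.34, limma adjusted p = 1.78e-06) and by 2.66 in adult against neonatal liver (limma adjusted p = 4.67e-05). It differed by -0.43 across birth, which did not pass (limma adjusted p = 0.399). Of 16 leukocyte, megakaryocyte and endothelial markers, the chemokine genes Ccl21b and Ccl21c had a named probe. Ccl21b rose in adult against neonatal liver by 2.39 (limma adjusted p = 0.000348) and Ccl21c by 1.63 (limma adjusted p = 0.00269). Both were called lower in neonatal than in E12.5 liver, by 1.17 (limma adjusted p = 0.0238) and 0.99 (limma adjusted p = 0.0300). Those calls were lost under 5 and 7 of 20 alternatives. In adult against E12.5 liver Ccl21b was called higher (limma adjusted p = 0.0154) and Ccl21c was not called (limma adjusted p = 0.126). That Ccl21b call was lost under 5 of 20 alternatives, among them no scaling, the slide as a block and leaving out adult replicate 2 or 3. Ccl21c was called there under 2 of 20. The part of a change in cell makeup in the course of Gk was not tested.

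Likeness to Gk was measured as Pearson's r of the scaled log2 level over the 15 arrays, which share stages and slides, and is given as a description. Of 37125 other features, 4.46% had an r of at least 0.9, and of 74 other genes with a symbol, 3 did. The most similar were H2ac18, a core histone H2A gene (0.95), Tmlhe (0.93) and B2m (0.92). Vmn1r157, a vomeronasal receptor gene, followed with 0.90 and had its single spot in column 150, among the columns that were dim on slide 1. It was well above background on no array of E12.5 or E14.5, 1 of E17.5 and all 6 postnatal arrays, so its fetal levels are bounds only. The fifth was the unnamed gene B020031M17Rik (0.84). Its neonatal arrays spread widely (-0.26 ± 1.94, SD, n = 3), and unlike Gk its mean was lower at E14.5 (-2.40) than at E12.5 (-1.59). With Gk read from columns below 120, r was 0.94 for H2ac18, 0.94 for Tmlhe and 0.92 for B2m.

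H2ac18 differed from Gk in when it changed most. Its scaled log2 level averaged 3.35 ± 0.16 at E14.5, 5.54 ± 0.07 in E17.5 liver, 6.49 ± 0.15 in neonatal liver and 7.64 ± 0.14 in adult liver (SD, n = 3 each). The widest gap between its neighbouring stages thus lay in late gestation, whereas for Gk, with all spots used, it lay across birth. The opposite course was clearest for Gm4312 (r = -0.93), Vmn1r187 (-0.89) and H2ac23, another H2A gene (-0.87). Vmn1r187 and H2ac23 were not well above background on any adult array. Of the probes with lincRNA names (long intergenic noncoding RNAs), MM9LINCRNAEXON10188-_P1 was most like Gk (0.98), followed by MM9LINCRNAEXON10415-_P1 (0.97). They are the top of many, as 286 features had an r of at least 0.95. The first was dim, at -2.69 at E12.5, where 2 of 3 arrays were well above background, and -0.55 in adult liver. The second went from -1.93 at E12.5 to 5.91 in adult liver, so a high r did not mean a change of like size.

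**Figure D5:**
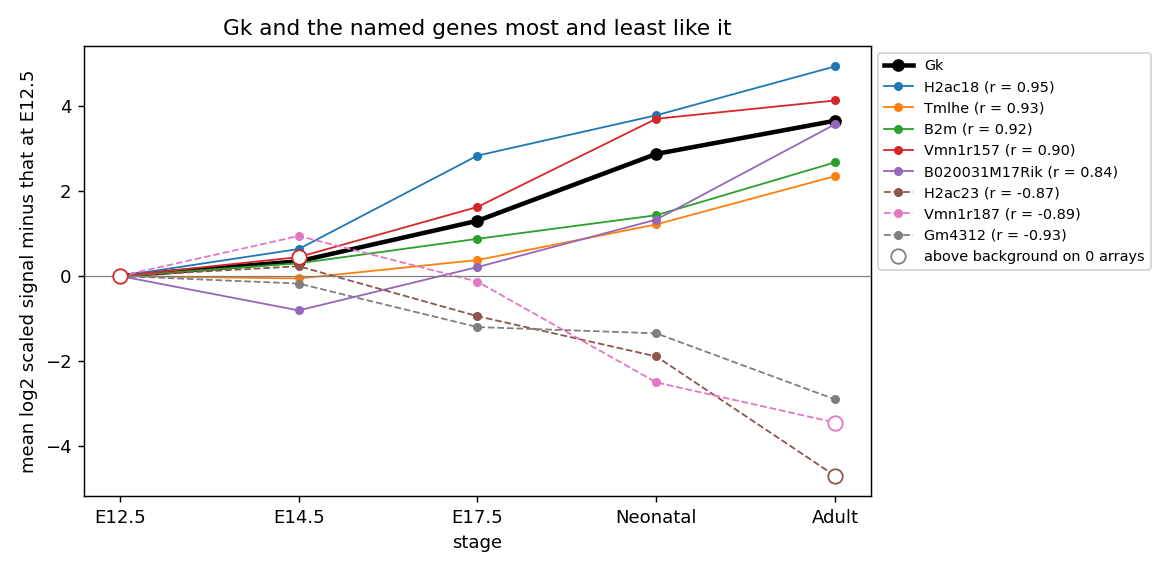
Mean log2 scaled signal of Gk (black) and of the 5 named genes most like it (solid) and 3 least like it (dashed), minus each gene's own mean at E12.5, over the 5 stages with 3 arrays each. Open symbols mark stages where a probe was well above background on 0 arrays, so that differences to them (Vmn1r157, Vmn1r187 and H2ac23) are bounds only. Gk stands 2.87 above its E12.5 level in neonatal and 3.65 above it in adult liver, and the dashed genes end below 0.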

How the data were processed

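The 15 mouse liver samples were labelled with 1 dye. Per the file headers, the deposited scanner files hold spot intensity values on a linear scale, background-subtracted and, where recorded, detrended by Agilent Feature Extraction 11.0.1.1, on a probe grid built on mm9. The submitters' processing notes name version 10.7.3.1, and which of them made the values is not known. The authors' deposited value table holds log2 values and served as an alternative. It holds 5 of the 17 listed genes tested and not Gk.

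Spots of a probe, outlier spots left out, were averaged, and the log2 of the 75th percentile over noncontrol probes was subtracted per array. Features were kept if, in some stage, every 1 of its 3 arrays had the probe well above background (in at least 50% of the spots), and were fitted with limma 3.58.1 in R 4.3.3 (lmFit and eBayes, stage means, 15 arrays in 1 fit), two-sided, with Benjamini-Hochberg adjustment over 37357 features per comparison. Precision is limited by 3 arrays per stage. The fit was tested on simulated data. The brightest probe stood for a gene. Symbols came from a RefSeq table (GRCm38.p6), which named 116 of 123 accessions as 112 symbols. Promoter sequence is from RefSeq.

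Gk, the gene lists, the motifs and the tests were chosen with earlier results of these data known. Named are Gk, the 5 most and 3 least correlated symbols, the 2 most correlated lincRNA probes, and tested members of the pathway and marker lists. The median spot signal, not the mean, entered the normexp (offset 50) and undetrended alternatives, because it is the one the files used here carry. Other alternatives covered scaling, spot summary, dim-probe filter, slide and replicate blocks, within-slide fits and each array left out.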

Additional observations from a re-analysis of the deposited data

How the results depend on the processing

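The 6 log2 differences of Gk kept their direction under all 126 alternatives, 108 of which moved them by less than the spread between arrays. Of the 126, 18 leave them as they are by construction. These are the filters on dim probes and the replicate block (3.65 for adult minus E12.5 with the block), since each replicate number occurs once in every stage. The slide block and within-slide fits also leave E14.5 minus E12.5 and adult minus neonatal unchanged, as each pair lies on 1 slide. The fit without arrays with raised negative-control signals repeats the fit without E17.5 replicate 1. The counts are thus not of separate checks. Correlations between arrays cannot decide whether replicate numbers pair the samples. The median correlation of deviations was 0.015 over 30 same-number pairs in different stages, 7 of them over 0.1. Over 60 other pairs it was -0.004, with 9 over 0.1. The highest, 0.48, was of a same-number pair, E12.5 replicate 1 and adult replicate 1. With 1 array left out in turn, E14.5 minus E12.5 ran from 0.27 to 0.41, E17.5 minus E14.5 from 0.84 to 1.09, neonatal minus E17.5 from 1.36 to 1.72, adult minus neonatal from 0.63 to 1.07, neonatal minus E12.5 from 2.66 to 3.02 and adult minus E12.5 from 3.50 to 3.94.

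Values that moved by more than the spread were these. E14.5 minus E12.5 was 0.21 from undetrended median signals, 0.60 with no scaling and 0.13 with normexp. E17.5 minus E14.5 was 0.66 from columns below 120, 1.76 from columns from 120 on, 1.31 with the mean of log2 spot signals, 0.71 with the median over spots, 0.76 undetrended, 0.65 with no scaling and 0.69 with normexp. Neonatal minus E12.5 was 3.56 from columns from 120 on, 3.22 with the mean of log2 signals, 2.38 undetrended and 2.14 with normexp. Adult minus E12.5 was 4.33 from columns from 120 on, 3.098 undetrended, 3.24 with no scaling and 2.79 with normexp. The column sets and the mean of log2 were chosen after seeing the data. The cause was not tested.

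Calls among the 17 listed genes (0, 0, 3, 8, 8 and 10 in the order of comparisons above) changed more. E14.5 minus E12.5 gave 1 with the slide block and within slide 1. E17.5 minus E14.5 gave 2 with the slide block and 1 each within slide 1, undetrended, with normexp, with quantile normalization, with the 75th percentile over probes detected on all arrays and from columns from 120 on. Neonatal minus E17.5 gave 5 with normexp and under the filter for probes detected on all arrays, 6 with quantile normalization, 1 with the slide block and within slide 2, and 0 from columns from 120 on. Of the 3 genes called there in the main fit, Hmgcs1 and H2al2b have no spot in those columns, and only Ldhal6b lost its call. Adult minus neonatal gave 5 from columns from 120 on, where Hmgcs1, Ccl21b and Ccl21c have no spot. No gene with spots in those columns lost its call in that comparison. Neonatal minus E12.5 gave 3 from columns below 120 and 4 from columns from 120 on, where fewer listed genes have spots. The authors' table, with 5 of these genes, gave 4 for adult minus neonatal, 5 for neonatal minus E12.5 and 4 for adult minus E12.5. With 1 array left out, the counts ran from 0 to 0, 0 to 2, 2 to 5, 7 to 8, 4 to 8 and 8 to 13. Without E17.5 replicate 3, E17.5 minus E14.5 gave 2 and neonatal minus E17.5 gave 5. Neonatal minus E12.5 gave 4 without neonatal replicate 1 and 5 without E12.5 replicate 1 or neonatal replicate 2.

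The dim signal of Gk at E12.5 and E14.5 limits its precision there. In columns from 120 on only 1 of 8 spots was well above background on E12.5 replicate 2.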

Other observations

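The column gap that touches Gk also moved with stage over all features with a single spot. In E17.5 against E14.5 liver the median log2 difference was 0.49 over 9397 features in columns from 120 on and -0.17 over 27945 features in columns below 120. In neonatal against E12.5 liver the medians were 0.81 and -0.35, and 41.2% and 12.2% of the features were called higher. In adult against neonatal liver, where all 6 arrays lie on slide 2, the medians were 0.15 and 0.18.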
